A study of Mus musculus with 26 samples.

Results

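The 10 genes described here encode transcription factors and a chromatin regulator that specify or mark brown fat: Prdm16, Ebf2, Ebf3, Zic1, Lhx8, Tbx15, Irf4, Zfp516, Ehmt1 and Nfia. They were taken by name, with no threshold on measured values, and make up 10 of the 50686 entries in the counts table. All 10 were among the 17286 genes that passed the filter on low counts and were tested.

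Brown adipocytes share a developmental origin with dorsal muscle and skin, and their identity is set by a network of nuclear factors. Prdm16 acts in a complex with the histone methyltransferase Ehmt1 to hold cells in the brown fat programme. Ebf2, and with it Nfia, opens brown fat enhancers and brings Pparg to them, while Irf4 and Zfp516 act with Ppargc1a or Prdm16 on thermogenic genes such as Ucp1. Zic1, Lhx8 and Tbx15 are developmental patterning factors, and the messages of Zic1 and Lhx8 are commonly used to tell classical brown fat from other depots.

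RNA-seq was carried out on brown adipose tissue (BAT), which the labels place in the supraclavicular depot, from male C57BL/6J mice aged 12 to 16 weeks. Mice labelled KO carried a floxed Afadin gene (Afdn, Mllt4 in the study's methods) and Adiponectin-Cre, which acts in white as well as brown adipocytes and leaves the other cells of the tissue untouched, and WT mice were littermate controls. All mice were housed singly and spent 2 weeks at thermoneutrality, given as 30 °C in the labels and 29 °C in the methods. The groups were WT30 (7 mice) and KO30 (7 mice), killed at thermoneutrality, and WT5 (5 mice) and KO5 (7 mice), killed after 6 h at 5 °C. The labels do not say which mice were siblings, so each library was treated as 1 mouse.

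The sequences just before the start sites of Prdm16, Ebf3 and Irf4 are shown because Prdm16 and Ebf3 were lower after cold in both WT mice and mice labelled KO, and because Irf4 had the largest rise of the 10 genes in mice labelled KO. Each line gives the 250 bases 5′ of the RefSeq start in GRCm38.p6, read 5′ to 3′ on the gene's strand. Prdm16 is at chr4:154636874-154637123 (minus strand), Ebf3 at chr7:137314446-137314695 (minus strand) and Irf4 at chr13:30748983-30749232 (plus strand).
Prdm16: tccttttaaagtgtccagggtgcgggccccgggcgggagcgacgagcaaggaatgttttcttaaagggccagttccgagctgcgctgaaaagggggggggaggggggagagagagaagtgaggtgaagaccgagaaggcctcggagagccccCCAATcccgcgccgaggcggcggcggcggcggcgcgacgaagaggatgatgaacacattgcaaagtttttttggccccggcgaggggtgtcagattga
Ebf3: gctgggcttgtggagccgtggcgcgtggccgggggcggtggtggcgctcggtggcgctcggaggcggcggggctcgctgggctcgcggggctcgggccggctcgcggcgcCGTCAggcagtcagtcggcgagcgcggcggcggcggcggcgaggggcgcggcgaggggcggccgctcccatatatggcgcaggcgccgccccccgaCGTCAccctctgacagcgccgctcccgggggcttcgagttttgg
Irf4: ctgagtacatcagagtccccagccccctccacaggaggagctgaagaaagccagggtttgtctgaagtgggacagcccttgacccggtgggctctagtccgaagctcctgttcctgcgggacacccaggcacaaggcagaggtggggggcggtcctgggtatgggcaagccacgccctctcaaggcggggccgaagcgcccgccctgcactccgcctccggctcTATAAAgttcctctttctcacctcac
The capitals mark matches, on either strand, to the CCAAT box (CCAAT), the CRE half-site bound by CREB-family factors (TGACG, read as CGTCA on the other strand) and the TATA motif (TATAAA). The Prdm16 window held 1 CCAAT box, 98 to 94 bases before the start. The Ebf3 window, with 80.0% G and C, held 2 CRE half-sites, at 140 to 136 and 44 to 40 bases before the start. The Irf4 window held a TATA motif 26 to 21 bases before the start. Of 27025 promoter windows of the same length, 34.5% held CCAAT, 17.9% TGACG and 13.0% TATAAA, so each match was common among promoters. The GC box (GGGCGG), left in lower case and held by 32.9% of the windows, was found in all 3 sequences. The full CRE (TGACGTCA, in 1.62% of windows), which contains the half-site, and the E-box CACGTG (6.05%) were not in these 3 windows. RefSeq promoters were on hand for 7 of the 10 genes, and those of Ebf2, Tbx15 and Zfp516 were not analysed here.

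Total counts ran from 12705969 to 25732258 per library, and the 10 genes were read at depths from 27 counts (Lhx8 in a KO5 library) to 4304 counts (Nfia in a WT5 library). Afdn itself was not lower in mice labelled KO at 30 °C, with 151 to 214 CPM (counts scaled with TMM factors to the same library total) in WT30 and 154 to 231 CPM in KO30 (log2 fold change -0.01, SE 0.08, adjusted p = 0.992). At 5 °C it ran from 67.9 to 79.2 CPM in WT5 and from 53.3 to 65.3 CPM in KO5 (log2 fold change -0.33, SE 0.09, adjusted p = 0.116). The groups are therefore named by their labels throughout, and every direction between them is a direction between labels. The study reports from immunoblots that the rise of Afadin protein with cold in BAT was reduced in knockout mice. It also compared Afadin protein in BAT between knockout and control mice at thermoneutrality. From RT-qPCR in both genotypes, it reports that more Mllt4 mRNA did not account for the rise of the protein. RNA counts over the whole gene in whole tissue do not measure Afadin protein. Ucp1, the uncoupling protein that defines brown fat, ran from 551 to 1290 CPM at 30 °C and from 13000 to 21000 CPM at 5 °C, as a check of the labelled tissue that was chosen after its values were seen. Summed markers shifted with cold for several cell types. Those of adipocytes were 7980 to 9720 CPM at 30 °C and 16100 to 19100 CPM at 5 °C and those of endothelial cells were 440 to 665 and 634 to 916 CPM, while those of Schwann cells were 77.1 to 120 and 50.9 to 69.6 CPM. The endothelial sums overlapped between temperatures in mice labelled KO (505 to 665 CPM in KO30 and 634 to 916 CPM in KO5). Those of stromal cells (1150 to 2970 CPM) and macrophages (153 to 260 CPM) also overlapped between temperatures. Of 6 adipocyte markers, 3 rose and 2 fell in WT mice and 4 rose and 2 fell in mice labelled KO. Of 6 endothelial markers, 4 rose and 2 fell in WT mice and 4 rose and 1 fell in mice labelled KO. Of 5 Schwann cell markers, 2 and 3 fell and 0 rose. Of all genes tested, 65.0% and 68.6% were called. A sum therefore need not stand for every marker on its list. The part of the shifts in these sums in the cold changes of the 10 genes was not tested. The 12 skeletal muscle markers summed to 24.8 to 13700 CPM in WT30, 20.4 to 3800 CPM in KO30, 10.6 to 14000 CPM in WT5 and 11.4 to 17500 CPM in KO5. Of these markers, 5 had no count in at least 1 library and none was at 0 in all. WT30 replicate 7, WT5 replicate 16 and KO5 replicate 25 stood apart with over 10000 CPM of muscle markers. In whole tissue, fewer cells of a type and less RNA per cell cannot be told apart.

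Per kilobase of merged exons, Ebf2 was the highest of the 10 genes at thermoneutrality, with a level of 10.9 ± 1.43 CPM per kb in WT30 (SD, n = 7) and 11.6 ± 1.47 CPM per kb in KO30 (SD, n = 7). Nfia followed at 8.00 ± 0.868 in WT30 and 8.49 ± 0.902 CPM per kb in KO30. In WT30 the ranges of every pair of neighbours in this order overlapped, from Ebf2 through Nfia, Irf4, Ehmt1, Ebf3, Prdm16, Zfp516, Tbx15 and Lhx8 down to Zic1 (1.26 ± 0.174 CPM per kb). In KO30, Ebf2 did not overlap Nfia, Nfia did not overlap Ehmt1, and Ebf3 did not overlap Prdm16. After cold the order changed at the top: Nfia led with 15.7 ± 1.13 CPM per kb in WT5 (SD, n = 5) and 14.9 ± 2.87 CPM per kb in KO5 (SD, n = 7), followed by Irf4 and then Ebf2. The ranges of Nfia and Irf4 overlapped in both groups. The lowest levels per length in all 4 groups were those of Lhx8 and Zic1, at 1.00 to 1.31 CPM per kb, and these 2 genes overlapped each other in every group.

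**Figure D1:**
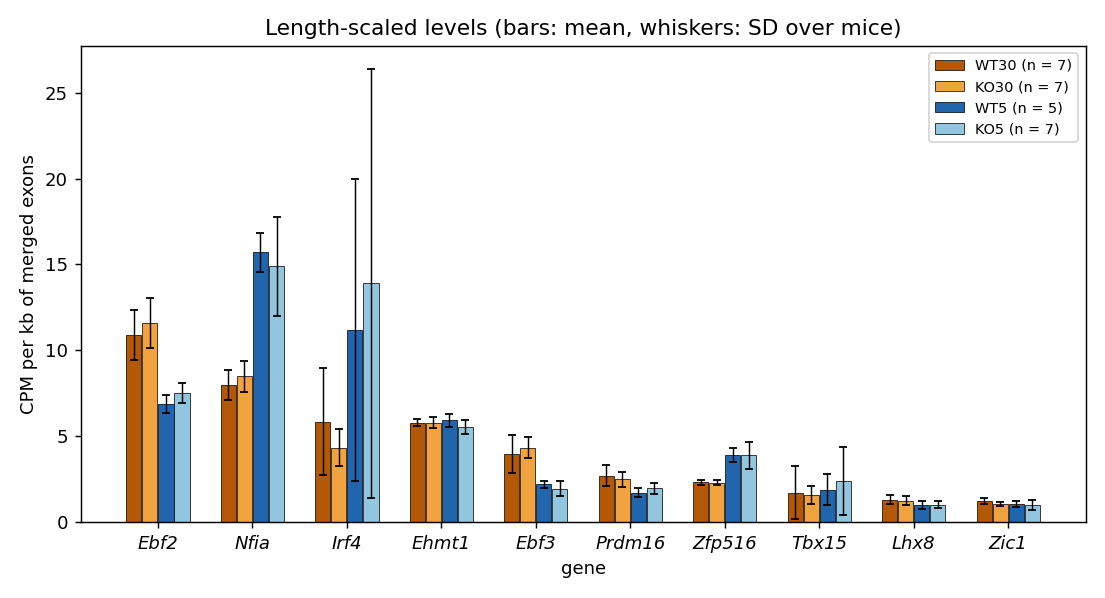
Length-scaled level of each gene (y axis, CPM per kb of merged exons) in WT30, KO30, WT5 and KO5, as the mean with the SD over mice. Ebf2 is the tallest pair of bars at 30 °C (10.9 and 11.6) and Nfia at 5 °C (15.7 and 14.9), while Irf4 carries the widest error bars.

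The first question was how 6 h of cold changed these genes in WT mice and in mice labelled KO. Of the 10 genes, 5 passed the threshold in WT mice, and 65.0% of all genes tested did so. Nfia and Zfp516 rose, as 31.6% of all genes did, and Prdm16, Ebf2 and Ebf3 fell, as 33.4% did. In mice labelled KO, 6 of the 10 passed, against 68.6% of all genes tested: the same 5, in the same directions, and Irf4, which rose. Of all genes, 33.7% rose and 34.9% fell there. The share of members called was thus near or below that of all genes in both comparisons. Below, some genes are described as having no overlap between temperatures. The share of all genes that separate in this way was not counted, so such a separation is not read as particular to a gene. The median log2 fold change of the 10 genes was -0.11 in WT mice and -0.08 in mice labelled KO, beside -0.01 and -0.03 over all genes tested. Without the 3 libraries rich in muscle RNA, the counts were again 5 and 6.

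**Figure D2:**
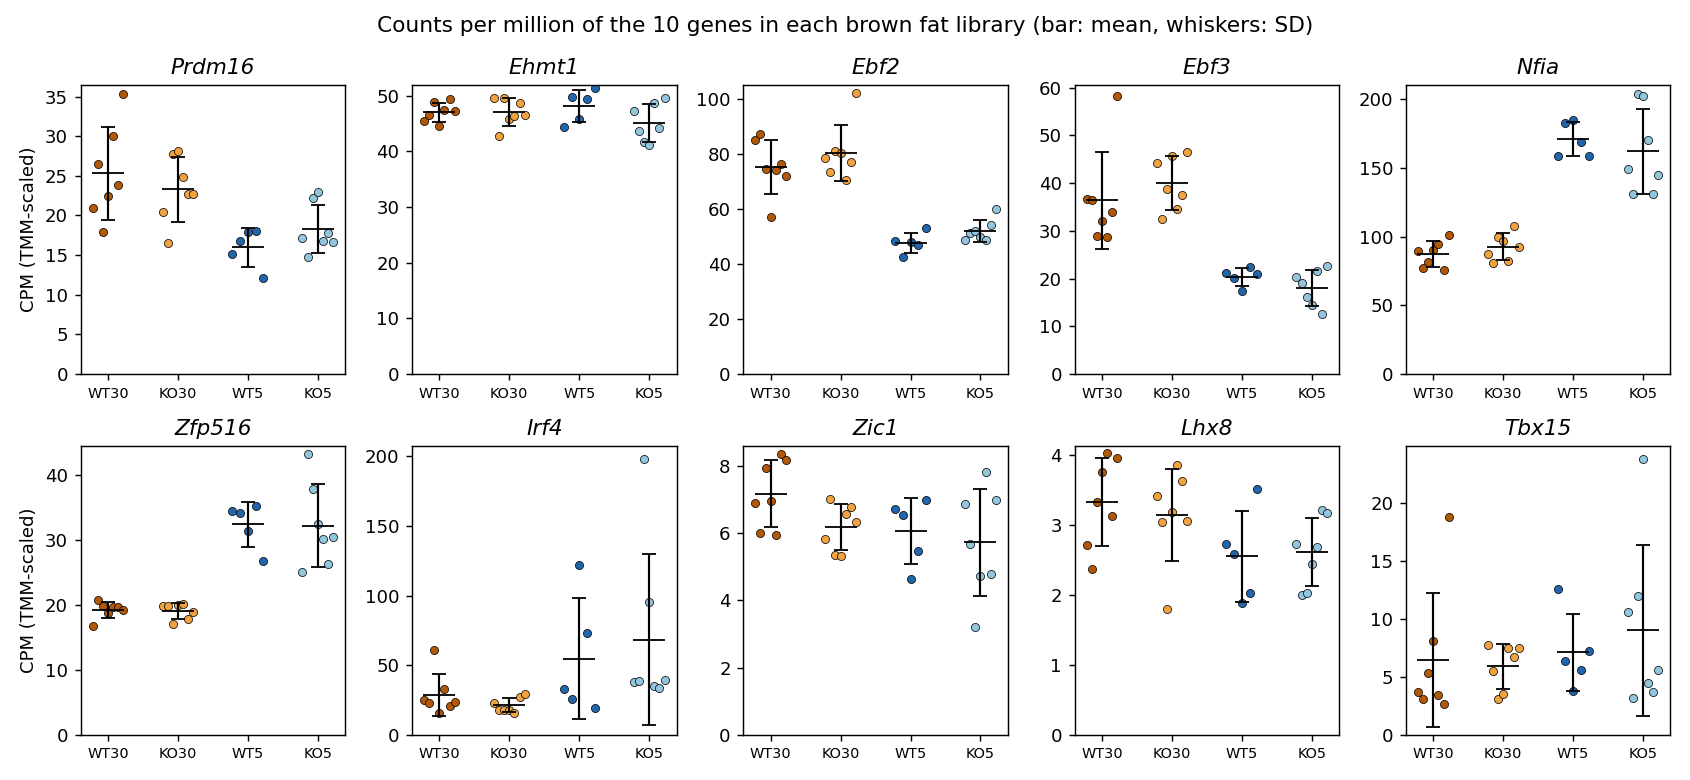
Level of each gene (y axis, CPM) in every library, with the mean and SD of WT30, KO30, WT5 and KO5. Within each label, Ebf2 and Ebf3 sit lower at 5 °C and Nfia and Zfp516 higher with no overlap, Ehmt1 is level at 41.2 to 51.4 CPM, and single libraries stand far above the rest for Irf4 (198 CPM) and Tbx15 (23.8 CPM). The share of all genes with no such overlap was not counted.

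Prdm16 (ENSMUSG00000039410.16, chromosome 4, 154316125 to 154636873 of mm10) encodes the zinc-finger coregulator that keeps brown precursors from the muscle fate. In WT5 it was read at 15.2, 16.8, 17.9, 18.0 and 12.1 CPM, against 17.9 to 35.3 CPM (median 23.8) in WT30. Thus 4 of the 5 cold libraries were below all 7 at thermoneutrality, and the groups met only at the lowest WT30 library. The log2 fold change was -0.66 (SE 0.15, 95% interval -0.97 to -0.35, adjusted p = 0.000459), and the level fell by 36.7%. Mice labelled KO showed a smaller difference, with 14.8 to 22.9 CPM (median 17.2) in KO5 and 16.5 to 28.1 CPM (median 22.7) in KO30. Only 1 of the 7 KO5 libraries was below all KO30 libraries, and the log2 fold change was -0.35 (SE 0.14, 95% interval -0.63 to -0.06, adjusted p = 0.0276). This call was lost when KO30 replicate 10 or 11, or KO5 replicate 23, 26 or 28, was left out (log2 fold change -0.30 to -0.33, adjusted p = 0.0501 to 0.0657). It was also lost with the mean log2 CPM of 6 nuclear-retained RNAs as a covariate (log2 fold change -0.10, adjusted p = 0.748). These RNAs themselves changed with cold, and differently between labels. Fits with this covariate, here and below, therefore cannot fully separate it from the groups. In WT mice the call held in all 12 fits that left out 1 library.

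Ehmt1 (ENSMUSG00000036893.17, chromosome 2, 24789928 to 24919614) encodes the H3K9 methyltransferase that works with Prdm16. Its levels spanned 44.5 to 49.4 CPM (median 47.2) in WT30, 42.7 to 49.6 CPM (median 46.6) in KO30 and 41.2 to 49.5 CPM (median 44.1) in KO5. The 5 WT5 libraries had 44.4, 49.7, 45.8, 49.4 and 51.4 CPM. All 4 groups overlapped, and no other member varied so little within WT30 (coefficient of variation 3.66%). The cold log2 fold change was 0.03 in WT mice (95% interval -0.08 to 0.15, adjusted p = 0.613) and -0.06 in mice labelled KO (95% interval -0.16 to 0.04, adjusted p = 0.296). Thus Prdm16 fell while the message of its partner did not pass the test, with intervals that allow at most a small change. The value in mice labelled KO depended on the scaling: with library size alone it was -0.37 (adjusted p = 0.00203), a scaling under which the all-gene median stood at -0.34 in place of -0.03.

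Ebf2 (ENSMUSG00000022053.13, chromosome 14, 67233292 to 67430918) is a helix-loop-helix factor that marks committed brown preadipocytes and opens brown fat enhancers. It was read at 48.2, 42.4, 47.8, 46.8 and 53.0 CPM in WT5 and at 57.0 to 87.3 CPM (median 74.4) in WT30, with no overlap. Its log2 fold change was -0.66 (SE 0.09, 95% interval -0.85 to -0.47, adjusted p = 5.35e-07). In mice labelled KO it fell from 70.6 to 102 CPM (median 78.3) in KO30 to 48.6 to 59.9 CPM (median 51.2) in KO5, again with no overlap. There the log2 fold change was -0.63 (SE 0.08, 95% interval -0.80 to -0.46, adjusted p = 1.86e-07). The level fell by 36.6% in WT mice and fell by 35.2% in mice labelled KO. With the nuclear-retained RNAs as a covariate the log2 fold changes were -0.40 (adjusted p = 0.00359) and -0.95 (adjusted p = 1.56e-06).

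Ebf3 (ENSMUSG00000010476.14, chromosome 7, 137193673 to 137314445), a close relative of Ebf2 that is used as a marker of brown fat, fell further. WT5 libraries had 21.2, 20.2, 17.4, 22.4 and 21.0 CPM, below all WT30 libraries at 28.8 to 58.3 CPM (median 33.9). The log2 fold change was -0.84 (SE 0.16, 95% interval -1.16 to -0.52, adjusted p = 3.76e-05). KO5 libraries had 12.6 to 22.6 CPM (median 19.1) and KO30 libraries 32.4 to 46.6 CPM (median 38.8), also with no overlap. The log2 fold change there was -1.14 (SE 0.14, 95% interval -1.43 to -0.85, adjusted p = 6.94e-08), and the level fell by 54.7%. WT30 replicate 7, with the highest Ebf3 level, was also rich in muscle RNA, and without it the value in WT mice was -0.71 and still passed.

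Nfia (ENSMUSG00000028565.18, chromosome 4, 97772734 to 98118874) encodes a nuclear factor I protein that binds brown fat enhancers before Pparg does. It rose in both comparisons, from 75.7 to 101 CPM (median 89.8) in WT30 to 159, 183, 185, 169 and 159 CPM in WT5. Every cold library was above every library at thermoneutrality, and the log2 fold change was 0.97 (SE 0.11, 95% interval 0.76 to 1.19, adjusted p = 7.09e-09), a 1.96-fold rise. In mice labelled KO it rose from 80.8 to 108 CPM (median 92.6) to 131 to 204 CPM (median 149), a 1.75-fold rise with no overlap (log2 fold change 0.81, SE 0.10, 95% interval 0.61 to 1.01, adjusted p = 4.21e-08). The KO5 libraries were more spread (SD 31.2 CPM, n = 7) than those of WT5 (SD 12.3 CPM, n = 5).

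Zfp516 (ENSMUSG00000058881.12, chromosome 18, 82910663 to 83005314) encodes a zinc-finger factor that binds the Ucp1 promoter and interacts with Prdm16. WT30 libraries lay within 16.7 to 20.7 CPM (median 19.7) and KO30 libraries within 17.0 to 20.2 CPM (median 19.8). In the cold they reached 34.5, 34.1, 31.4, 35.2 and 26.8 CPM in WT5, and 25.1 to 43.2 CPM (median 30.5) in KO5, with no overlap with thermoneutrality in either. The log2 fold change was 0.75 in WT mice (SE 0.10, 95% interval 0.55 to 0.96, adjusted p = 2.66e-07) and 0.75 in mice labelled KO (SE 0.09, 95% interval 0.56 to 0.94, adjusted p = 6.14e-08). Both correspond to a 1.68-fold rise.

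Irf4 (ENSMUSG00000021356.9, chromosome 13, 30749226 to 30766976) encodes an interferon regulatory factor that partners with Ppargc1a at Ucp1 in brown adipocytes and is also a factor of lymphocytes. It had 33.0, 25.8, 122, 73.4 and 19.6 CPM in WT5, against 15.7 to 61.2 CPM (median 23.3) in WT30. Only 2 of the 5 cold libraries were above all those at thermoneutrality, and the log2 fold change, 0.94 (SE 0.45, 95% interval 0.02 to 1.85, adjusted p = 0.069), missed the threshold. It passed when WT30 replicate 3 (value 1.24, adjusted p = 0.0179), WT5 replicate 17 (1.11, adjusted p = 0.0403) or WT5 replicate 21 (1.15, adjusted p = 0.0300) was left out, and was 0.40 without WT5 replicate 18. In mice labelled KO the groups did not overlap: KO30 had 16.0 to 29.2 CPM (median 18.2) and KO5 had 33.5 to 198 CPM (median 39.0). The log2 fold change was 1.68 (SE 0.42, 95% interval 0.81 to 2.55, adjusted p = 0.00103). The cold libraries were uneven. In KO5, 5 of the 7 lay within 33.5 to 39.2 CPM, and replicates 25 and 24 had 95.3 and 198 CPM. Without replicate 24 the log2 fold change was 1.13 (adjusted p = 0.00771), and with the nuclear-retained RNAs as a covariate it was 2.77 (adjusted p = 0.000927). The 6 lymphocyte markers, all tested, summed to 3.62 to 8.42 CPM in WT30, 3.56 to 8.55 in KO30, 1.01 to 2.59 in WT5 and 1.43 to 16.4 in KO5, and 1 of them, Ms4a1, was at 0 in 2 libraries. The library with the highest Irf4 had 1.72 CPM of these markers, and the library with the most of them, KO5 replicate 23 at 16.4 CPM, had 39.0 CPM of Irf4. In WT30, however, replicate 3 had both the highest Irf4 (61.2 CPM) and the highest lymphocyte sum (8.42 CPM), and it is 1 of the 3 libraries without which the call in WT mice was made. The part of lymphocytes in the level of Irf4 was not tested.

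Zic1 and Lhx8, the lowest of the 10 genes per length, did not pass the test in either cold comparison. Zic1 (ENSMUSG00000032368.14, chromosome 9, 91358058 to 91365810), a zinc-finger factor of classical brown fat, had 6.70, 6.55, 4.63, 5.46 and 6.97 CPM in WT5 and 5.95 to 8.34 CPM (median 6.95) in WT30. It had 3.22 to 7.81 CPM (median 5.68) in KO5 and 5.31 to 7.00 CPM (median 6.34) in KO30. The groups overlapped, and the cold log2 fold change was -0.25 in WT mice (95% interval -0.57 to 0.08, adjusted p = 0.17) and -0.11 in mice labelled KO (95% interval -0.41 to 0.19, adjusted p = 0.519). Lhx8 (ENSMUSG00000096225.7, chromosome 3, 154306294 to 154330659), a LIM homeobox factor, had 2.73, 2.58, 1.89, 2.03 and 3.51 CPM in WT5 and 2.37 to 4.02 CPM (median 3.32) in WT30, and 2.00 to 3.21 CPM (median 2.68) in KO5 and 1.80 to 3.85 CPM (median 3.18) in KO30. These groups overlapped as well, with 4 of 5 WT5 libraries and 5 of 7 KO5 libraries below the mean at thermoneutrality. The log2 fold change was -0.39 in WT mice (95% interval -0.76 to -0.01, adjusted p = 0.0659) and -0.27 in mice labelled KO (95% interval -0.61 to 0.08, adjusted p = 0.157). The value of Lhx8 in WT mice passed without WT30 replicate 1 (-0.43), WT30 replicate 2 (-0.45) or WT5 replicate 21 (-0.53), with adjusted p of 0.0491, 0.0330 and 0.0170, and that in mice labelled KO without KO30 replicate 10 (-0.36, adjusted p = 0.039). Lhx8 was read with 27 to 86 counts per library and Zic1 with 43 to 178.

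Tbx15 (ENSMUSG00000027868.11, chromosome 3, 99240381 to 99354259), a T-box factor needed for brown and beige adipocyte differentiation that is also made in skeletal muscle, was the member whose level differed most between mice of 1 group, together with Irf4. It had 12.6, 6.41, 3.78, 5.56 and 7.26 CPM in WT5 and 2.67 to 18.8 CPM (median 3.74) in WT30. It had 3.14 to 23.8 CPM (median 5.62) in KO5 and 3.08 to 7.73 CPM (median 6.72) in KO30. The groups overlapped, and the log2 fold change was 0.12 in WT mice (95% interval -0.87 to 1.11, adjusted p = 0.842) and 0.60 in mice labelled KO (95% interval -0.30 to 1.5, adjusted p = 0.228). These intervals allow a rise or a fall. The highest Tbx15 levels, 12.6, 18.8 and 23.8 CPM, were those of the 3 libraries with over 10000 CPM of muscle markers. In 10 libraries with under 500 CPM of these markers Tbx15 ran from 2.67 to 4.51 CPM, and in the other 16 from 5.37 to 23.8 CPM, with no overlap. This limit was chosen after the values were seen, and the split is a description with no test. The libraries under it were 4 of 7 in WT30, 2 of 7 in KO30, 1 of 5 in WT5 and 3 of 7 in KO5. All of the other 9 genes overlapped between the same sets of libraries, as Prdm16 did (14.8 to 30.0 CPM below the limit and 12.1 to 35.3 CPM above it). The limit falls where Tbx15 separates, and the share of all genes that separate there was not counted. The overlap of the other 9 genes therefore does not mark Tbx15 out. Of the 12 muscle markers, 0 passed the test in either cold comparison (median log2 fold change 0.60 and 1.33), and their part in the level of Tbx15 was not tested.

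**Figure D3:**
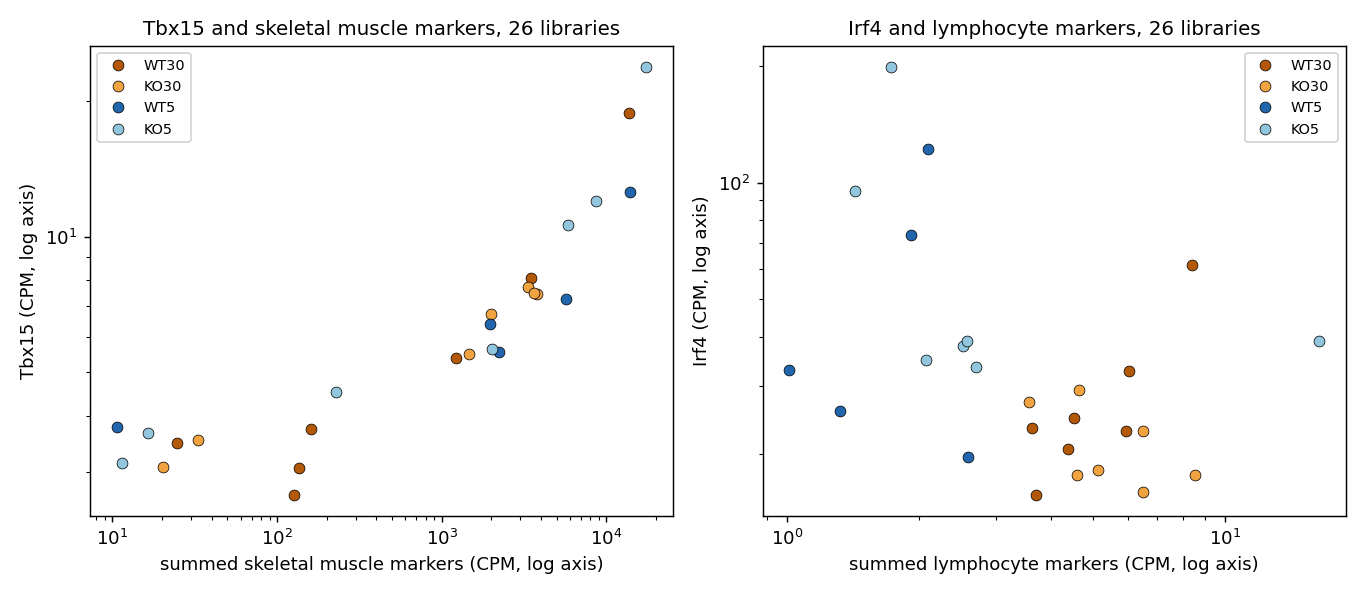
Left, Tbx15 (y axis, CPM, log scale) against the summed level of 12 skeletal muscle markers (x axis, CPM, log scale), and right, Irf4 against the summed level of 6 lymphocyte markers on the same kind of axes, 1 point for each of the 26 libraries. Tbx15 is highest (12.6 to 23.8 CPM) in the 3 libraries richest in muscle markers, whereas the libraries with the highest Irf4 in the cold (73.4 to 198 CPM) had 1.43 to 2.10 CPM of lymphocyte markers, and the highest at 30 °C (61.2 CPM) had 8.42 CPM.

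**Figure D4:**
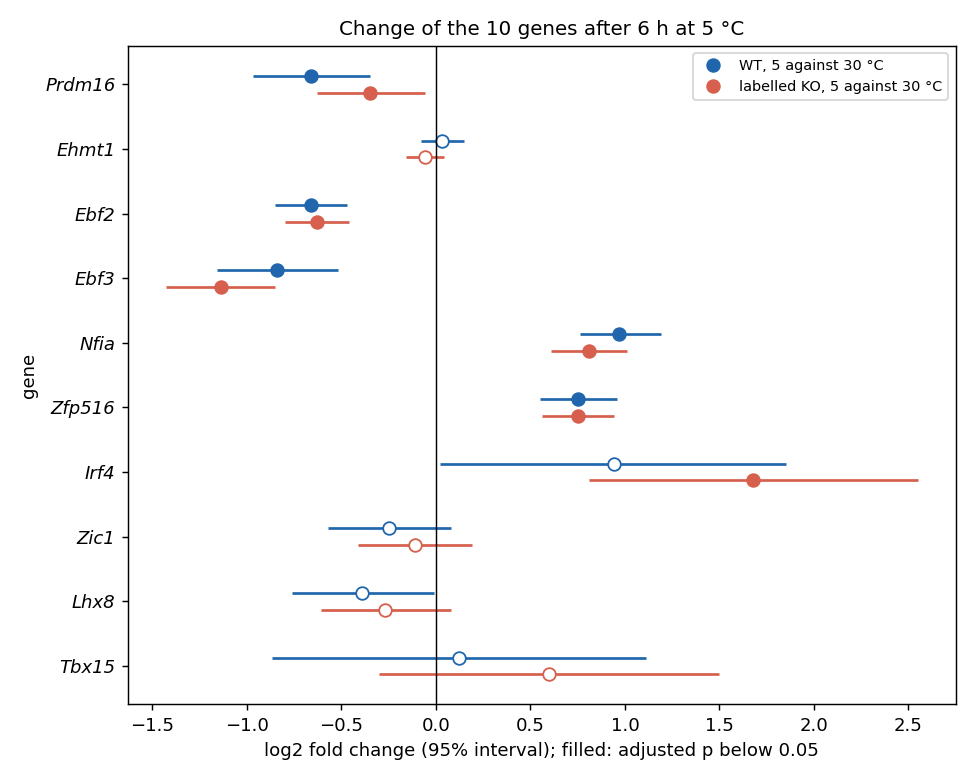
Log2 fold change of each gene from 30 to 5 °C (x axis) with its 95% interval in WT mice and in mice labelled KO, where filled points have an adjusted p below 0.05. Nfia and Zfp516 lie to the right of 0 and Prdm16, Ebf2 and Ebf3 to the left in both, Ehmt1 straddles 0, and Irf4 and Tbx15 have the widest intervals.

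The second question was whether the genes differed between mice labelled KO and WT mice at the same temperature. At 30 °C, 0 of the 10 genes passed edgeR's quasi-likelihood test or DESeq2's Wald test. Of all genes tested, 0.081% (14 genes) passed with edgeR and 40 genes with DESeq2. An unadjusted p below 0.05 with edgeR was found for 0 of the 10 genes and for 1322 of the 17286 genes tested. With only 10 genes, these counts of 0, and those that follow, are not read as particular to them. The log2 fold changes (KO30 against WT30) ran from -0.43 for Irf4 (95% interval -1.30 to 0.43, adjusted p = 0.878) to 0.13 for Ebf3 (-0.15 to 0.42, adjusted p = 0.894). For Prdm16 the value was -0.12 (-0.40 to 0.16) and for Ebf2 0.10 (-0.07 to 0.26). For Nfia it was 0.09 (-0.11 to 0.28), for Zfp516 -0.01 (-0.20 to 0.18) and for Ehmt1 0.00 (-0.10 to 0.10). Zic1 stood at -0.22 (-0.51 to 0.08, adjusted p = 0.77), with all 7 mice labelled KO below the mean of WT30 and 3 below every WT30 library. Lhx8 was at -0.08 (-0.42 to 0.26) and Tbx15 at -0.14 (-1.05 to 0.77). The study reports lower Prdm16 expression by RT-qPCR after Afadin knockdown in cultured brown adipocytes without β3-agonist. Those were cultured cells and these values come from whole tissue of mice, so the Prdm16 results are not directly comparable.

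At 5 °C, 0 of the 10 genes passed either test, where 0.139% of all genes tested (24 genes) passed with edgeR and 162 genes with DESeq2. An unadjusted p below 0.05 with edgeR was found for 0 of the 10 genes and for 2323 of the 17286 genes tested. The values (KO5 against WT5) ran from -0.17 for Ebf3 (95% interval -0.49 to 0.15, adjusted p = 0.668) to 0.35 for Tbx15 (-0.65 to 1.34, adjusted p = 0.808). Prdm16 was at 0.19 (-0.12 to 0.51), Ebf2 at 0.13 (-0.06 to 0.31), Nfia at -0.08 (-0.30 to 0.14) and Zfp516 at -0.01 (-0.22 to 0.20). Ehmt1 was at -0.09 (-0.20 to 0.02, adjusted p = 0.468), with 4 of 7 KO5 libraries below every WT5 library. Irf4 was at 0.31 (-0.62 to 1.24), Zic1 at -0.08 (-0.40 to 0.25) and Lhx8 at 0.04 (-0.34 to 0.42). A value that missed the threshold does not show equal levels: the intervals of Irf4 and Tbx15 include a doubling at 5 °C, while those of Ehmt1, Ebf2, Nfia and Zfp516 stay within 0.31 of 0 on the log2 scale at both temperatures. The 6 nuclear-retained RNAs on the list summed to 8970 to 10600 CPM in WT30, 10500 to 11800 in KO30, 14800 to 16300 in WT5 and 10300 to 13600 in KO5. Of these 6, 0 passed the test between labels at 30 °C and 1 fell at 5 °C, and for the difference of the cold responses 3 of the 6 passed, all lower in mice labelled KO (median -0.52). Their part in the values of the 10 genes was not tested beyond the fit with their mean log2 CPM as a covariate. That fit cannot fully separate these RNAs from the groups.

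**Figure D5:**
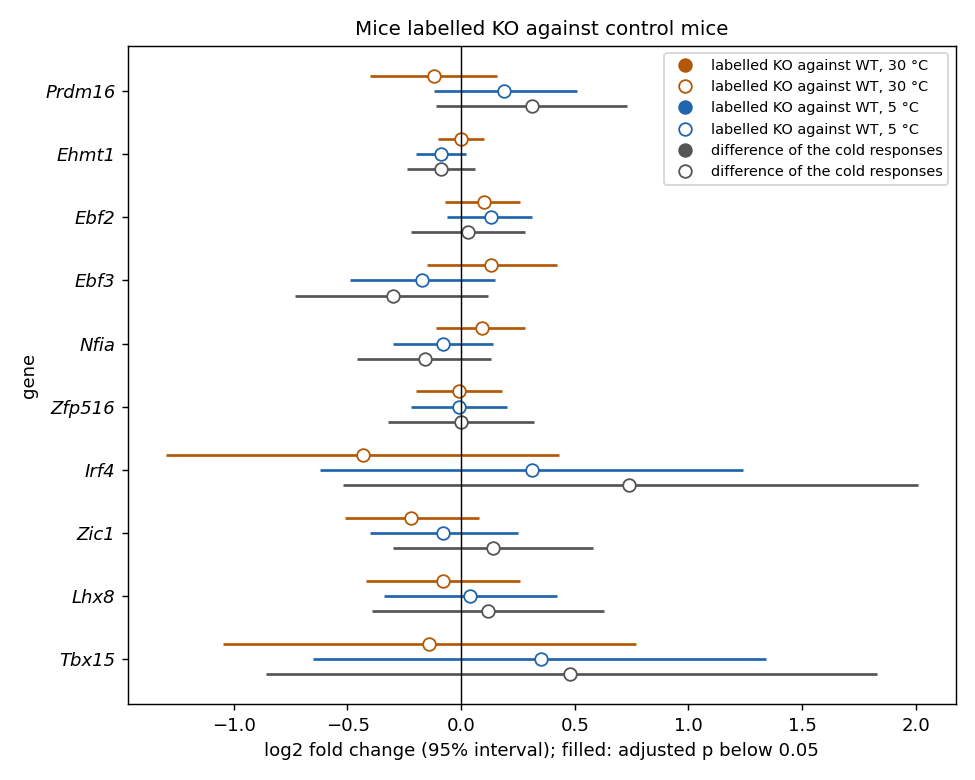
Log2 fold change of each gene (x axis) with its 95% interval for mice labelled KO against WT mice at 30 °C and at 5 °C, and for the difference of the cold responses. All points are open, meaning that none had an adjusted p below 0.05. The intervals are narrowest for Ehmt1 and widest for Irf4 and Tbx15.

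The third question was whether the response to cold itself differed between labels. The interaction passed the test for 0 of the 10 genes with either tool, where 1.16% of all genes tested (200 genes) passed with edgeR and 434 genes with DESeq2. An unadjusted p below 0.05 with edgeR was found for 0 of the 10 genes and for 2804 of the 17286 genes tested. The smaller fall of Prdm16 in mice labelled KO gave a difference of 0.31 (SE 0.20, 95% interval -0.11 to 0.73, adjusted p = 0.468). The larger fall of Ebf3 there gave -0.30 (SE 0.21, 95% interval -0.73 to 0.12, adjusted p = 0.493), and the larger value of Irf4 gave 0.74 (SE 0.62, 95% interval -0.52 to 2.01, adjusted p = 0.591). That Irf4 passed in mice labelled KO and not in WT mice is therefore not shown to be a difference between them. The other 7 values lay between -0.16 for Nfia and 0.48 for Tbx15, and that of Zfp516 was 0.00 (95% interval -0.32 to 0.32).

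Among the partners and coregulators of these factors, cold changes ran in both directions. Of 17 listed, all tested, 8 rose and 6 fell in WT mice (all genes: 65.0% called) and 6 rose and 6 fell in mice labelled KO (all genes: 68.6%), with medians of 0.12 and 0.03. These counts, and those of the lists that follow, are given beside the shares of all genes and are not read as particular to a list. Ppargc1a, the coactivator of thermogenic genes, had the largest rise, at a log2 fold change of 4.07 (SE 0.21) in WT mice and 3.95 (SE 0.20) in mice labelled KO. Cebpb, the C/EBP factor that works with Prdm16, rose by 1.69 (SE 0.25) and 1.73 (SE 0.23). Cebpa, the C/EBP factor of mature adipocytes, fell from a mean of 365 to 72.7 CPM in WT mice (-2.33, SE 0.09) and from 328 to 90.3 CPM in mice labelled KO (-1.86, SE 0.08). Dpf3, a BAF-complex subunit recruited by Ebf2, fell by 1.24 (SE 0.18) in WT mice and by 1.35 (SE 0.16) in mice labelled KO, as Ebf2 did. Cebpa was the only partner whose cold response differed between labels (0.47, SE 0.12, adjusted p = 0.0428), a call that was lost in 19 of the 26 fits that left out 1 library. None of the 17 passed the test between labels at either temperature.

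Relatives of the 10 genes ran in both directions. Of the 26 tested of 37 listed, 6 rose and 12 fell in WT mice and 5 rose and 14 fell in mice labelled KO (medians -0.41 and -0.40), where 31.6% and 33.7% of all genes rose and 33.4% and 34.9% fell. Ebf1, the paralogue of Ebf2 and Ebf3 that is abundant in fat, rose in WT mice from a mean of 104 to 156 CPM (log2 fold change 0.60, SE 0.10, adjusted p = 7.8e-06) and by 0.31 (SE 0.09, adjusted p = 0.00374) in mice labelled KO, whereas Ebf2 and Ebf3 fell. Nfic, of the same family as Nfia, fell by 1.66 (SE 0.11) in WT mice and by 1.46 (SE 0.10) in mice labelled KO, whereas Nfia rose. Tbx3, a T-box factor, rose by 1.82 (SE 0.19) and 1.79 (SE 0.18). Prdm1, a repressor of the Prdm family, fell by 1.42 (SE 0.32) and 1.27 (SE 0.27), and Irf5, a relative of Irf4 made in myeloid cells, was at 0.12 (adjusted p = 0.488) in WT mice and rose by 0.60 (SE 0.14) in mice labelled KO, with no call for the difference (0.48, adjusted p = 0.247). Irf2 was the only relative that passed the test between labels at 1 temperature, being lower in KO5 (mean 10.9 CPM) than in WT5 (15.4 CPM), with a difference of -0.50 on the log2 scale (SE 0.10, adjusted p = 0.0407), a call lost in 9 of the 12 fits that left out 1 library. The cold responses of Irf2 (-0.64, SE 0.14, adjusted p = 0.0269) and of Nfib (-0.42, SE 0.09, adjusted p = 0.0232) differed between labels: Nfib fell by 0.43 in WT mice and by 0.84 in mice labelled KO, and Irf2 had values of 0.28 and -0.36. The call of Irf2 was lost in 3 of 26 such fits and that of Nfib in 0, and both were lost with the nuclear-retained RNAs as a covariate (adjusted p = 0.576 and 0.449) and with no filter on low counts (adjusted p = 0.0578 and 0.0544).

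Of 9 factors that oppose the brown fat programme tested of 10 listed, 2 rose and 4 fell in WT mice, near the 65.0% called of all genes, and 2 rose and 6 fell in mice labelled KO (all genes: 68.6%), with medians of -0.27 and -0.16. Zfp521, which binds and blocks Ebf factors, fell by 1.35 (SE 0.19) and 1.38 (SE 0.17), and Rbl1, the pocket protein p107, fell by 1.91 (SE 0.17) and 2.03 (SE 0.15). Nrip1, a corepressor of Ucp1, rose by 1.13 (SE 0.16) and 1.27 (SE 0.15), and Tle3, which competes with Prdm16 for Pparg, rose by 0.56 (SE 0.20, adjusted p = 0.0156, lost without WT5 replicate 18) and 0.81 (SE 0.18). Thus factors on both sides of the programme were found among those that fell and those that rose. No opposing factor passed the test between labels at either temperature or in the cold response.

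Of 20 brown fat genes downstream of or used alongside the 10 factors, 12 rose and 4 fell in WT mice, and 13 rose and 4 fell in mice labelled KO (medians 0.63 and 0.74), where 31.6% and 33.7% of all genes rose and 33.4% and 34.9% fell. The largest rises were those of Elovl3, a fatty acid elongase (8.35, SE 0.55, and 8.02, SE 0.52), and Dio2, the thyroid hormone deiodinase (7.00, SE 0.56, and 6.63, SE 0.54). Ntrk3 and Ppara fell by 2.19 (SE 0.14) and 1.17 (SE 0.12) in WT mice and by 2.16 (SE 0.12) and 1.03 (SE 0.11) in mice labelled KO. Of 8 genes of white and beige depots tested of 14 listed, 3 rose and 1 fell in WT mice and 5 rose and 1 fell in mice labelled KO (medians 0.40 and 0.74), against the same shares of all genes. Lep, encoding the hormone leptin, fell by 5.61 (SE 0.49) and 4.36 (SE 0.39), Nnmt, a nicotinamide methyltransferase, rose by 3.71 (SE 0.27) and 3.93 (SE 0.26), Npr3, a natriuretic peptide clearance receptor, rose by 1.57 (SE 0.31) and 1.47 (SE 0.29), and Agt, encoding angiotensinogen, was at 1.17 (SE 0.81, adjusted p = 0.207) in WT mice and rose by 2.83 (SE 0.77) in mice labelled KO, with no call for the difference (1.65, adjusted p = 0.489). In neither list did any gene pass the test between labels at 30 °C, at 5 °C or in the cold response.

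The genes with the pattern most like each member across the 26 libraries were found by the root mean square difference of log2 CPM, each gene centred on its own mean, among 14245 genes with a mean of at least 1 CPM. For Ebf2 they were Focad and G6pc3 (differences 0.12 and 0.13, where the spread of Ebf2 around its mean was 0.35). For Nfia they were Insr, encoding the insulin receptor, and the kinase gene Dyrk1a (both 0.14, spread 0.47), and for Zfp516 they were Rnf144a and Maea (0.12 and 0.13, spread 0.40). Plce1 and Lrp1 were nearest to Prdm16 (both 0.20, spread 0.35), and Pomt1 and Fat4 to Ebf3 (0.19 and 0.20, spread 0.56). Tbx15 was nearest to Cacna2d1, a calcium channel subunit of muscle, and Slc25a12, a mitochondrial carrier (0.23 and 0.27, spread 0.80). For Irf4 the nearest genes, Abi3 and Gm18040, had the largest differences (0.54 and 0.56), but its spread of 0.91 was also the largest of the members. Ssna1 and Thap11 were nearest to Zic1 (0.19 and 0.20, spread 0.29), and Trim8 and P3h1 to Lhx8 (0.22 and 0.23, spread 0.32). For Ehmt1 the nearest genes, Nfatc3 and Rint1 (both 0.08), were little closer than a flat line, since its spread was 0.08. The libraries share the cold exposure and its depth, so likeness over them is a description.

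Several members overlap other annotated genes, and the sources used here do not say whether strand was used in the counting of these stranded libraries. Zic4, on the opposite strand to Zic1, had a median of 17.5% of the counts of Zic1. It fell in the cold by 1.13 (adjusted p = 0.000264) in WT mice and by 0.99 (adjusted p = 0.000379) in mice labelled KO, where Zic1 did not pass. Gm6878, antisense to Ebf2, had 12.8% of its counts and a log2 fold change of -0.16 (adjusted p = 0.426) in WT mice and -1.0 (adjusted p = 3.25e-06) in mice labelled KO. Gm10578, antisense to Ebf3, had 9.95% and fell by 0.80 and 1.81. Gm13134 and Gm13133, antisense to Prdm16, had 6.11% and 4.03%. Their log2 fold changes were 0.33 (adjusted p = 0.374) and -0.01 (adjusted p = 0.977) in WT mice. In mice labelled KO they were -0.89 (adjusted p = 0.0096) and -1.46 (adjusted p = 0.000904). E130114P18Rik, which overlaps Nfia on the opposite strand, had 0.781% and rose by 2.13 in WT mice and by 1.34 in mice labelled KO. Gm37139, a same-strand transcript within Ehmt1, had 14.3% of the counts of Ehmt1 and a log2 fold change of 0.70 (adjusted p = 0.000212) in WT mice and -0.16 (adjusted p = 0.319) in mice labelled KO. If strand was not used, reads of each opposite-strand pair cannot be told apart where their exons overlap. For the same-strand pair of Gm37139 and Ehmt1, strand does not separate the reads in either case.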

How the data were processed

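BAT from 26 mice was sequenced from rRNA-depleted total RNA with a stranded kit and 100-bp single-end reads. Per the methods and the labels, the authors used STAR 2.5.2b for alignment to mm10, then featureCounts 1.5.2 with GENCODE M13 for gene counts, and deposited raw counts without normalization. The alignment was not repeated. Reads outside annotated exons are not in these counts, and the strand setting of the counting is not given in the sources used here.

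Symbols, positions and merged exon lengths came from GENCODE M21 by gene ID (50462 of 50686 entries matched). Genes were kept with filterByExpr by group, scaled with TMM factors and tested in 1 model with a term per group (edgeR 4.0.16, legacy quasi-likelihood, R 4.3.3), the design of the study's own edgeR 3.22.0 analysis. P-values were adjusted by Benjamini-Hochberg over all 17286 genes tested, with a threshold of 0.05. All adjusted p-values printed are from this test unless another tool is named, and p-values measure the spread between mice. Log2 CPM used a prior count of 2. All 73 pairs of libraries of the same group differed by more than sampling noise (lowest chi-square per gene 5.17). Depth was 12705969 to 25732258 counts per library.

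The members and the gene lists were chosen with earlier results of these data known. All 10 members are named in every comparison. From each list of partners, relatives, opposing factors, brown fat genes and white and beige depot genes, the 2 called genes with the largest rise and the 2 with the largest fall (mean of at least 1 CPM) are named, as are the 2 genes most like each member and Afdn. Any other gene was named after its values were seen. The test was tried on simulated data with 200 changed genes, of which it found 185 of 200 with 12 others among 16901 genes for cold in WT mice. The median absolute log2 fold change of the changed genes was 0.994. In the measured data, 65.0% of all genes tested were called for cold in WT mice. The performance of the test with so large a share of changed genes was not tested. Promoter sequences are from RefSeq (GRCm38.p6).

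The alternatives were DESeq2 1.42.0, library size, RLE or upper-quartile scaling, either no filter or a minimum of 10 counts per library, revised or robust quasi-likelihood, only the groups compared, a muscle or nuclear RNA score as covariate, leaving out each library, and leaving out the 3 libraries with over 10000 CPM of muscle markers, which was chosen after the data were seen.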

Additional observations from a re-analysis of the deposited data

Results flagged for a closer look

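Of 40 sets of libraries (10 genes in 4 groups), 7 had a library far from the others of its group by Dixon's test, where chance gives about 1 in 20. Ebf2 was 102 CPM in KO30 replicate 14, where the next library had 81.0 CPM. Ebf3 was 58.3 CPM in WT30 replicate 7 (next 36.6 CPM), and Lhx8 was 1.8 CPM in KO30 replicate 10 (next 3.04 CPM). Tbx15 was 18.8 CPM in WT30 replicate 7 (next 8.10 CPM) and 23.8 CPM in KO5 replicate 25 (next 12.0 CPM), and these libraries had 13700 and 17500 CPM of muscle markers. Irf4 was 61.2 CPM in WT30 replicate 3 (next 32.8 CPM) and 198 CPM in KO5 replicate 24 (next 95.3 CPM), with 8.42 and 1.72 CPM of lymphocyte markers. KO5 replicate 24 also had the lowest Zic1 level of any library, 3.22 CPM.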

How the results depend on the processing

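No paired analysis was possible because the groups share no replicate number. Of 590 values of the 10 genes under other settings, 539 kept their direction and their side of the threshold, and all 5 genes called in WT mice kept their calls under every setting. Lhx8 had the fewest counts (27 to 86 per library), and Irf4 and Tbx15 had the widest intervals.

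The number of members called was 5 to 7 for cold in WT mice, 5 to 6 for cold in mice labelled KO and 0 between labels and for the interaction when 1 library was left out. It was at most 6 and 8 in the cold under the other settings, and otherwise 0. Of all genes, the count called between labels at 30 °C (14) became 40 with DESeq2, 34 with library size alone, 9 with no filter, 2 with the nuclear RNA covariate, 91 without the 3 muscle-rich libraries, and 7 to 93 when 1 library was left out. At 5 °C (24) it became 162, 5 and 15 with the first 3 of these, 45 with at least 10 counts in every library, 9 with only the groups compared, and 7 to 100 with 1 library left out. For the interaction (200) it became 434 with DESeq2, 27 with no filter and 49 to 371 with 1 library left out. The highest of these came without WT30 replicate 7 (93 and 371) or KO5 replicate 22 (100). With library size alone the median of all genes moved by over 0.1 (to -0.14 for cold in WT mice, -0.34 for cold in mice labelled KO, 0.13 between labels at 30 °C and -0.15 for the interaction), and the split of higher and lower genes went from 5454 and 5779 to 4165 and 6243 in WT mice and from 5825 and 6035 to 3223 and 8384 in mice labelled KO. With upper-quartile factors it was 4694 and 7369 in mice labelled KO. Between labels at 30 °C the split went from 10 and 4 to 34 and 0 with library size alone and 13 and 1 with upper-quartile factors, at 5 °C from 8 and 16 to 4 and 1 and to 7 and 24, and for the interaction from 50 and 150 to 0 and 278 and to 27 and 246.

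Beside the changes given in the report, Lhx8 also passed for cold in WT mice with upper-quartile factors (-0.50), at least 10 counts in every library (-0.44) or the muscle covariate (-0.43), and in mice labelled KO with library size alone (-0.59) or upper-quartile factors (-0.43). Ehmt1 passed in mice labelled KO with upper-quartile factors (-0.22) and at least 10 counts (-0.12), and Tbx15 with the nuclear RNA covariate (1.98).

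The values that changed sign were all uncalled in the report, and they stayed uncalled. With the nuclear RNA covariate they were, at 5 °C, -0.18 for Ebf2, 0.14 for Zfp516 and 0.21 for Nfia, at 30 °C 0.10 for Zic1 and -0.17 for Nfia, for cold in WT mice 0.05 for Zic1, -0.97 for Tbx15 and -0.05 for Irf4, and for the interaction -0.54 for Ebf2, -0.59 for Zic1, 0.27 for Zfp516 and 0.38 for Nfia. With library size alone they were, for the interaction, -0.16 for Ebf2, -0.03 for Zic1 and -0.07 for Lhx8, between labels 0.07 for Lhx8 and 0.14 for Zfp516 at 30 °C and 0.00 for Lhx8 at 5 °C, and for cold in WT mice -0.09 for both Tbx15 and Ehmt1. With upper-quartile factors they were -0.02 for Ebf2 (interaction), 0.02 for Zfp516 at 30 °C and -0.07 for Ehmt1 (cold in WT mice). Without the muscle-rich libraries they were 0.01 for Zic1 and Zfp516 at 5 °C, 0.43 for Tbx15 at 30 °C, and -0.24 for Tbx15 and 0.02 for Zfp516 (interaction). With no filter, at least 10 counts or only the groups compared, Zfp516 at 30 °C was 0.01, 0.00 and 0.01, and Ehmt1 for cold in WT mice was -0.01 with the last 2. With DESeq2 or RLE factors, Zfp516 was 0.00 at 5 °C and 0.02 for the interaction and Ehmt1 was 0.00 at 30 °C, and with no filter (5 °C) or revised quasi-likelihood (interaction) Zfp516 was also 0.00. The cause was not tested.

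When 1 library was left out, signs changed within these ranges. At 30 °C they were -0.15 to 0.02 for Lhx8, -0.27 to 0.44 for Tbx15, -0.04 to 0.02 for Zfp516 and -0.01 to 0.04 for Ehmt1. At 5 °C they were -0.17 to 0.02 for Zic1, -0.05 to 0.19 for Lhx8, -0.12 to 0.66 for Tbx15, -0.24 to 0.84 for Irf4 and -0.10 to 0.04 for Zfp516. For cold in WT mice Tbx15 ran from -0.19 to 0.66, and for the interaction Ebf2 ran from -0.01 to 0.09, Tbx15 from -0.09 to 0.79 and Zfp516 from -0.08 to 0.05.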
